A study of Mus musculus with 12 samples.

Results

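Serine synthesis and folate one-carbon enzymes were described through 10 genes in mouse cumulus cells, which enclose the oocyte in the follicle. The genes are Phgdh, Psat1 and Psph of serine synthesis, the serine hydroxymethyltransferases Shmt1 and Shmt2, the folate enzymes Mthfd1, Mthfd1l, Mthfd2 and Aldh1l2, and Gcsh of the glycine cleavage system. They were chosen by name out of 13318 genes with a value, with their difference between the groups already known. That difference is therefore described here and is not offered as a test. All 10 genes were listed in at least 1 library. The filter, a value in all 6 libraries and a mean of at least 1 FPKM (fragments per kilobase of transcript, scaled to the size of the library), was passed by 9 of them and by 9022 genes in all.

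The group given FSH and FBS comprised 3 RNA libraries from cumulus cells that received both agents over 18 hours. FSH is the gonadotropin that can drive cumulus expansion, and FBS is fetal bovine serum. The untreated group comprised 3 RNA libraries from cells labelled only as untreated. All cells came from Kunming mice and are labelled as granulosa cells of antral follicles. The labels give neither the age of the mice nor a culture time for the untreated cells, and they do not say whether the oocyte was removed. FSH, FBS and time in culture therefore cannot be told apart. In such bulk libraries, fewer cells of a type and less RNA per cell also cannot be told apart.

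First-exon FPKM and last-exon FPKM were each summed over a gene, and the larger sum was taken as its value in that library. FPKM is scaled to transcript length, so levels of different genes are compared per length. The depth is unknown, because the files hold no counts. Over genes of at least 10 FPKM, the median difference between libraries 1 and 2 was 6.62% in the FSH and FBS group and 7.44% in the untreated group. Library 3 differed from them by 43.1% and 44.0% in the FSH and FBS group and by 29.1% and 29.6% in the untreated group. Within each group, libraries 1 and 2 were therefore merged into a mean that enters as 1 sample, beside library 3 as the other, which makes n = 2. Untreated library 2 shared 0% of its assembled locus identifiers with the other 5 libraries, which shared 99.2% to 99.4% with each other over 8119 genes. Its transcript models thus came under different identifiers, which bears on the exon results below and on gene values, since these sum listed exons. Untreated library 2 stood apart from library 1 for some genes, such as Paics, Impdh2 and Eno1 below. Whether the identifiers account for that was not tested.

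Granulosa and cumulus markers summed to 563 to 737 FPKM with FSH and FBS and to 594 to 708 FPKM in untreated libraries, from 10 to 12 and from 11 to 12 of 14 genes. Single markers under these similar sums differed in both directions. Inha had 276 to 282 FPKM with FSH and FBS and 350 to 502 FPKM untreated, and Fshr 1.42 to 2.09 and 3.08 to 7.92 FPKM. Amh was the higher with FSH and FBS, at 4.37 to 12.6 FPKM against 1.28 to 2.38 FPKM. Foxl2, which defines granulosa cells, was listed in no library. Oocyte markers summed to 5.82, 4.78 and 30.8 FPKM in FSH and FBS libraries 1 to 3, from 2, 2 and 11 of 25 genes, and to 27.5 to 38.9 FPKM in untreated libraries, from 14 to 17 genes. Bmp15, which defines oocytes, was listed in none. Theca and stroma markers summed to 20.5 to 24.5 FPKM with FSH and FBS and to 65.9 to 83.2 FPKM in untreated libraries, from 2 to 4 and from 4 to 6 of 10 genes, so these sums moved with the groups. The theca gene Cyp17a1 was listed only in untreated library 1, at 0.0321 FPKM. Leukocyte markers summed to 2.96 to 7.499 FPKM with FSH and FBS and to 9.11 to 12.6 FPKM in untreated libraries, leaving out Cd79a, whose listed exons lay outside that gene; Ptprc, which defines leukocytes, was listed only in FSH and FBS library 1, at 0.00504 FPKM. Endothelial markers summed to 2.70 to 3.37 FPKM with FSH and FBS and to 0.0224 to 0.984 FPKM untreated, and erythroid markers to 0.277 to 1.92 FPKM with FSH and FBS and to 0.393 to 0.726 FPKM untreated. The part of these other cells in the results below was not tested. Within the FSH and FBS group, library 3, whose oocyte sum lay in the range of the untreated libraries, held the highest value of Phgdh, Psat1, Shmt2 and Mthfd2 and the lowest of Psph, Mthfd1, Mthfd1l, Gcsh and Aldh1l2.

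Serine is made from a glycolytic intermediate, 3-phosphoglycerate, in a short cytosolic pathway. Serine hydroxymethyltransferases then split serine into glycine and a carbon unit carried by tetrahydrofolate, in the cytosol through SHMT1 and in mitochondria through SHMT2. Folate enzymes oxidise or pass on that unit, and in many proliferating mammalian cells the mitochondrial arm runs toward formate, which leaves for the cytosol and feeds purine, thymidylate and methyl group synthesis. Cumulus cells metabolise glucose for the oocyte and pass it metabolites through gap junctions.

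Promoter sequences were available for 9 of the 10 genes in a RefSeq table of build GRCm38.p6, as 10 promoters that each run from 250 bases before the annotated start to 50 bases after it. No build for the deposited tables is given in the sources used here. RefSeq starts lay 0 to 196 bases from the nearest outer end of a first exon listed for the gene in any library. For Mthfd1l that exon, at 43 bases, was listed only in untreated library 2. All other libraries listed a first exon from 3972465, upstream of the window, which begins at 3972825. For Psph the exon at 196 bases carried 0.658% and 0.412% of first-exon FPKM in FSH and FBS libraries 1 and 2. The windows therefore need not hold the starts in use. Aldh1l2 has no promoter in that table. Those of Psat1 and Mthfd2 are printed because these genes had the largest differences among the cytosolic and the mitochondrial enzymes. Those of Shmt2 and Shmt1 are printed because the enzymes run the same reaction in mitochondria and in the cytosol. Each reads 5′ to 3′ along the gene's strand, which is the minus strand for all 4, and capitals mark CCAAT or its reverse complement ATTGG.
Psat1 promoter, chr19:15925010-15925309: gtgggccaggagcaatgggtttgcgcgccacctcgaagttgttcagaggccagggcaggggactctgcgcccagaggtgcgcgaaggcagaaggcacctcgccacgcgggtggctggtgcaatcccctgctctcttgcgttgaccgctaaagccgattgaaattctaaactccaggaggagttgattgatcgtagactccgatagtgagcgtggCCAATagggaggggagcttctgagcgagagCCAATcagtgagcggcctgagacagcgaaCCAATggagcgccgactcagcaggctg
Mthfd2 promoter, chr6:83317555-83317854: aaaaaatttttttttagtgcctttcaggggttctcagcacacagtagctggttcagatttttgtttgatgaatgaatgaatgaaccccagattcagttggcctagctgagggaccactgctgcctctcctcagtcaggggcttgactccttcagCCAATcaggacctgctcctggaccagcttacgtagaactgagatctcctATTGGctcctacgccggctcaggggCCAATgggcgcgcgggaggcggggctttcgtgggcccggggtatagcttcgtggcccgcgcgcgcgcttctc
Shmt2 promoter, chr10:127522395-127522694: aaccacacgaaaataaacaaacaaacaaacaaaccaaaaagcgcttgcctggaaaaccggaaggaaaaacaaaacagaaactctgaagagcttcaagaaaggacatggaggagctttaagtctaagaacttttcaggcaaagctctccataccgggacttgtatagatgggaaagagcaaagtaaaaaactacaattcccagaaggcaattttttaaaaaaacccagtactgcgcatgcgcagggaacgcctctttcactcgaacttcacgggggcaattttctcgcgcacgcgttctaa
Shmt1 promoter, chr11:60811216-60811515: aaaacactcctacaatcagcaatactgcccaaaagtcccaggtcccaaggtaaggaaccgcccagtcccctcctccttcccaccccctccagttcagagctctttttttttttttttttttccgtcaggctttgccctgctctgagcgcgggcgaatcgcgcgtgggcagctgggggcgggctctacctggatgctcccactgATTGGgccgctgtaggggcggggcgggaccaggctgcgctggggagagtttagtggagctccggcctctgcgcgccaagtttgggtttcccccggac
CCAAT, the letters bound by the factor NF-Y, stood on either strand in 7 of the 10 promoters and in 37.4% of the 32851 promoters of the table. Psat1 and Mthfd2 held 3 copies each, Phgdh, Psph and Gcsh 2 each, and Shmt1 and Mthfd1 1 each. Shmt2 and Mthfd1l held none, as did a second Psat1 promoter. The first 2 Psat1 copies begin 36 and 6 bases before the annotated start. In Mthfd2 the copies begin 96, 47 and 22 bases before it, and the copy of Shmt1 begins 47 bases before it. TGATGNAA, the core of the response element bound by ATF4 and C/EBP factors, was searched on both strands and is not in any of the 10 windows; 3.97% of all promoters hold it. CACGTG, an E-box, is likewise not in these windows, against 7.15% of all promoters. These matches describe letters and not binding.

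Phgdh, which encodes the first enzyme of the pathway, lies on the minus strand at chr3:98313170-98339990 in the coordinates of the files; positions given for a gene span its listed events, which need not reach its ends. Its values in FSH and FBS libraries 1 to 3 were 106, 191 and 243 FPKM, against 23.7, 22.9 and 22.0 FPKM in untreated libraries 1 to 3. All FSH and FBS libraries lay above all untreated ones, and the untreated libraries differed little among themselves. The means were 196 ± 66.8 FPKM with FSH and FBS and 22.6 ± 0.863 FPKM untreated (SD, n = 2 each), a fold of 8.63. On the log2(FPKM + 1) scale, which understates changes of low genes, the fold change was 3.01 (SE 0.389). FSH and FBS libraries 1 and 2 stood apart for this gene, with 1.81 times as much FPKM in library 2, and only 4.10% of the 9022 genes differed more between these 2 libraries. The pseudogene Phgdh-ps1 was listed in no library.

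Psat1 encodes the aminotransferase of the second step and lies on the minus strand at chr19:15904678-15925059. Its values were 69.2, 63.2 and 80.9 FPKM with FSH and FBS, against 4.28, 5.12 and 2.41 FPKM untreated. The groups were far apart, and untreated library 3 was the lowest of all. The means were 73.5 ± 10.4 FPKM with FSH and FBS and 3.56 ± 1.62 FPKM untreated (SD, n = 2 each), a fold of 20.7, and the log2 fold change was 4.07 (SE 0.388), rank 10 of the 9022 genes when ordered from the most positive. The first exon beside the printed Psat1 promoter carried nearly all first-exon signal. A second first exon, beside the promoter without CCAAT, was listed at no more than 0.000653 FPKM.

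Psph encodes the phosphatase that releases serine and lies on the minus strand at chr5:129765898-129787449. It was listed at 74.8, 89.4 and 61.0 FPKM with FSH and FBS, against 3.50, 5.89 and 4.84 FPKM untreated, with no overlap of the groups. The means were 71.6 ± 14.9 FPKM with FSH and FBS and 4.77 ± 0.0999 FPKM untreated (SD, n = 2 each), a fold of 15.02, and the log2 fold change was 3.64 (SE 0.348). The files list no last exon of Psph, so its value rests on first exons alone. Its span overlaps Cct6a, a chaperonin subunit gene on the plus strand, and whether the libraries keep the strand is not given in the sources used here, so reads of the overlap cannot be told apart. Cct6a was listed at 124, 127 and 57.1 FPKM with FSH and FBS and at 163, 159 and 106 FPKM untreated, and its groups overlapped. Its part in the values of Psph was not tested.

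**Figure D1:**
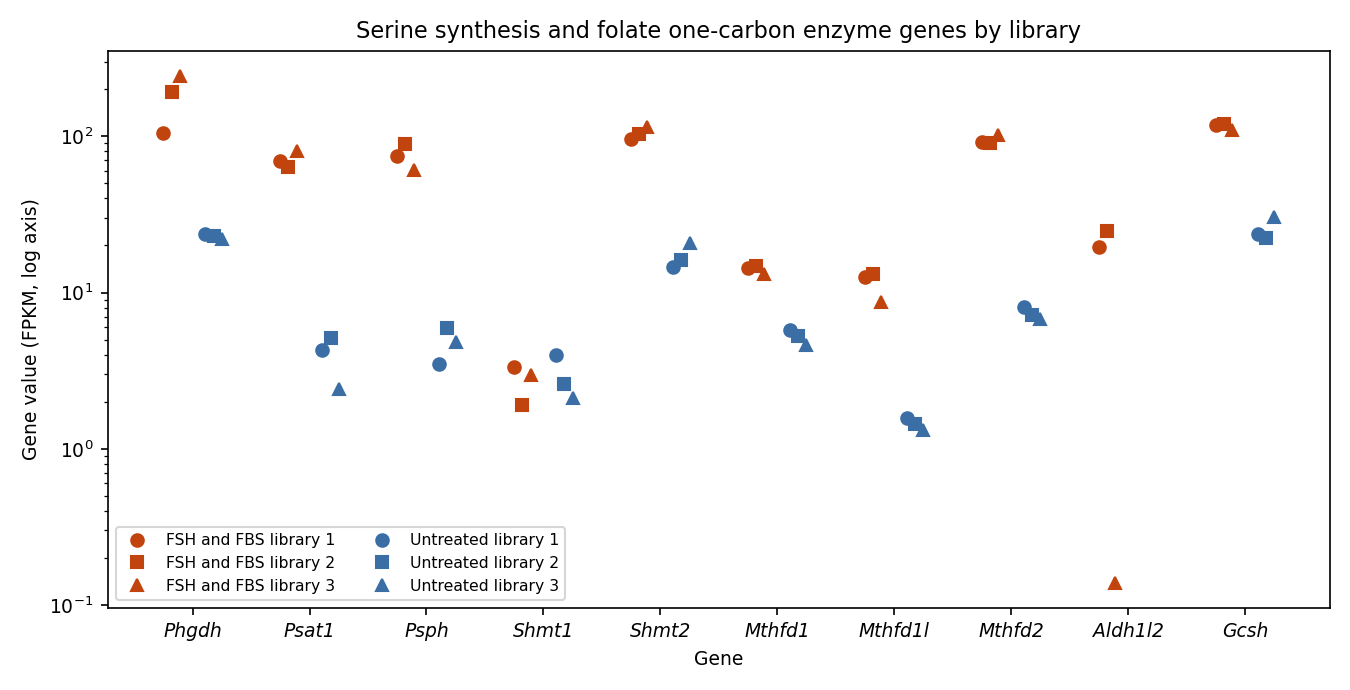
Gene value in FPKM (log axis) of the 10 enzyme genes (horizontal axis), with 1 symbol per library: FSH and FBS in orange on the left of each gene, untreated in blue on the right, and a shape for each library number. Shmt1 is the one gene whose groups overlap, Aldh1l2 has no untreated symbol because it is not listed there, and Phgdh spreads from 106 to 243 FPKM within the FSH and FBS group.

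Summed over the 3 genes, serine synthesis stood at 249.7, 344 and 385 FPKM with FSH and FBS, against 31.4, 33.9 and 29.3 FPKM untreated. The make-up of the sum differed too. Phgdh had 1.53, 3.02 and 3.002 times the FPKM of Psat1 with FSH and FBS, and 5.52, 4.46 and 9.14 times untreated, so the 2 groups did not overlap in this ratio. Psph had 1.08, 1.41 and 0.755 times the FPKM of Psat1 with FSH and FBS and 0.818, 1.15 and 2.01 times untreated, and here the groups overlapped. By rank of FPKM among the genes listed in a library, Phgdh stood at 378, 191 and 243 with FSH and FBS and at 2104, 2192 and 1922 untreated. Psat1 stood at 643, 717 and 770 with FSH and FBS and at 7386, 6961 and 8113 untreated, of 10475 to 11398 genes listed with FSH and FBS and 10786 to 11552 untreated.

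At the next step, the split of serine, Shmt2 encodes the mitochondrial hydroxymethyltransferase and lies on the minus strand at chr10:127517123-127522444. It was listed at 96.6, 104 and 115 FPKM with FSH and FBS, against 14.5, 16.1 and 20.6 FPKM untreated. The groups did not overlap, and library 3 was the highest in each. The means were 108 ± 10.6 FPKM with FSH and FBS and 18.0 ± 3.73 FPKM untreated (SD, n = 2 each), a fold of 6.01, with a log2 fold change of 2.53 (SE 0.355). Its last exon overlaps Ndufa4l2 on the plus strand, which was listed at no more than 0.231 FPKM.

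Shmt1, the cytosolic counterpart, lies on the minus strand at chr11:60789316-60811265. Its values were 3.33, 1.91 and 2.97 FPKM with FSH and FBS, against 3.96, 2.59 and 2.11 FPKM untreated. The groups overlapped, with the highest value in an untreated library and the lowest in an FSH and FBS library. The means were 2.79 ± 0.247 FPKM with FSH and FBS and 2.69 ± 0.823 FPKM untreated (SD, n = 2 each), which differ by less than the spread between samples. The log2 fold change was 0.06 (SE 0.382), and its sign turned with the setting, from -0.17 to 0.19 over the alternatives run. The promoter of Shmt1 printed above holds CCAAT and that of Shmt2 does not.

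Within a library, Shmt2 had 29.0, 54.6 and 38.9 times the FPKM of Shmt1 with FSH and FBS, against 3.67, 6.23 and 9.76 times untreated. Shmt2 thus made up 96.7%, 98.2% and 97.5% of the summed FPKM of the pair with FSH and FBS, and 78.6%, 86.2% and 90.7% untreated. The mitochondrial gene was the larger in every library, and its share was higher in each FSH and FBS library than in any untreated one.

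Among the folate enzymes of mitochondria, Mthfd2 encodes the dehydrogenase and cyclohydrolase and lies on the minus strand at chr6:83305691-83317606. It was listed at 92.3, 90.1 and 102 FPKM with FSH and FBS, against 8.05, 7.14 and 6.79 FPKM untreated. Both groups were tight and far from each other. The means were 96.4 ± 7.32 FPKM with FSH and FBS and 7.19 ± 0.570 FPKM untreated (SD, n = 2 each), a fold of 13.4, and the log2 fold change of 3.57 (SE 0.336) was the highest of the mitochondrial genes.

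Mthfd1l encodes the mitochondrial formyltetrahydrofolate synthetase, which releases formate, and lies on the plus strand at chr10:3972465-4156111. Its values were 12.6, 13.2 and 8.71 FPKM with FSH and FBS, against 1.58, 1.43 and 1.32 FPKM untreated. No untreated library reached the lowest FSH and FBS library, which was library 3. The means were 10.8 ± 2.93 FPKM with FSH and FBS and 1.41 ± 0.132 FPKM untreated (SD, n = 2 each), a fold of 7.63, and the log2 fold change was 2.27 (SE 0.381).

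Aldh1l2 encodes the mitochondrial formyltetrahydrofolate dehydrogenase, which oxidises the carbon unit to carbon dioxide, and lies on the minus strand at chr10:83495869-83534140. FSH and FBS libraries 1, 2 and 3 listed it at 19.7, 24.7 and 0.139 FPKM, and no untreated library listed it. In library 3 the listing was a last exon of a form with a kept intron, with no first exon, so this library stood with the untreated ones. Nothing is listed at 0 in these tables, and Gapdh, a gene that cells use throughout, was itself listed only in untreated library 3, at 0.461 FPKM. An unlisted gene is therefore not shown to be absent, and Aldh1l2 was not tested and has no fold.

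In the cytosol, Mthfd1 encodes the enzyme that joins the synthetase, cyclohydrolase and dehydrogenase activities, and lies on the plus strand at chr12:76255232-76319820. It was listed at 14.4, 14.7 and 13.2 FPKM with FSH and FBS, against 5.76, 5.26 and 4.65 FPKM untreated. The groups did not overlap, but on the log2 scale they lay closer than those of any other tested enzyme gene except Shmt1. The means were 13.9 ± 0.925 FPKM with FSH and FBS and 5.08 ± 0.614 FPKM untreated (SD, n = 2 each), a fold of 2.73, and the log2 fold change was 1.29 (SE 0.351).

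Gcsh encodes the lipoyl-carrying protein of the mitochondrial glycine cleavage system and lies on the minus strand at chr8:116981810-116993537. Its values were 118, 119.5 and 109 FPKM with FSH and FBS, against 23.6, 22.3 and 30.3 FPKM untreated, without overlap. The means were 114 ± 6.60 FPKM with FSH and FBS and 26.6 ± 5.21 FPKM untreated (SD, n = 2 each), a fold of 4.28, and the log2 fold change was 2.07 (SE 0.356).

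**Figure D2:**
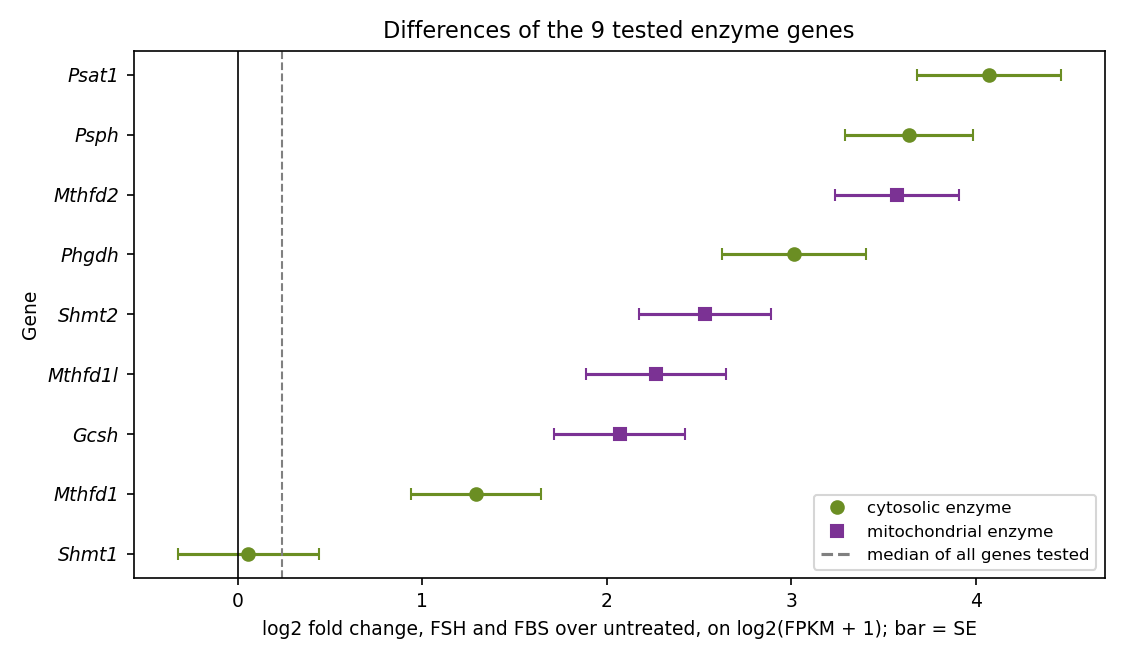
Log2 fold change of FSH and FBS over untreated on the log2(FPKM + 1) scale (horizontal axis) for the 9 enzyme genes tested, largest at the top, with bars of 1 SE; circles are cytosolic and squares mitochondrial enzymes, and the dashed line is the median of all genes tested, 0.24. Values run from 4.07 for Psat1 to 0.06 for Shmt1, and the 4 mitochondrial genes lie between 2.07 and 3.57.

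Of the 9 genes tested, 7 passed limma at an adjusted p under 0.05 as higher with FSH and FBS, where 1.68% of all genes did, and 0 passed as lower, where 0.687% did. At an unadjusted p under 0.05, 8 were higher and 0 lower, and the share of all genes at that threshold is not given here. All 3 FSH and FBS libraries lay above all 3 untreated ones for 8 of the 9, and for 29.4% of all genes. Since the genes were picked with this contrast known, nothing is read from these counts. Mthfd1 and Shmt1 did not pass, with limma adjusted p-values of 0.118 and 0.963. With a replicate block that sets the merged libraries 1 and 2 apart from library 3, Mthfd1 did pass (limma adjusted p = 0.00517). Without untreated library 3 the untreated group held 1 sample, and the log2 fold changes ran from -0.17 for Shmt1 to 3.70 for Psat1. The median log2 fold change of the 9 genes was 2.53, against 0.24 for all genes tested. Scaling each library by the median of ratios brought that of all genes to 0.0037 and left 4 of the 9 genes past the threshold. It also moved the calls over all genes to 49 higher and 41 lower, against 152 higher and 62 lower without scaling.

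By compartment, the 5 cytosolic genes had a median log2 fold change of 3.01, from 0.06 for Shmt1 to 4.07 for Psat1, and 3 of them passed. Those 3 are the serine synthesis genes. The 4 mitochondrial genes tested had a median of 2.40, from 2.07 to 3.57, and all 4 passed. The folate arm was also summed. Shmt2, Mthfd2, Mthfd1l and Aldh1l2 summed to 221, 232 and 226 FPKM with FSH and FBS, against 24.2, 24.7 and 28.7 FPKM untreated. Aldh1l2 entered as 0 in the untreated libraries, which do not list it. The cytosolic folate enzymes among the genes described, Shmt1 and Mthfd1, summed to 17.7, 16.6 and 16.2 FPKM with FSH and FBS, against 9.72, 7.85 and 6.76 FPKM untreated. The mitochondrial sum was thus 12.5, 14.0 and 14.0 times the cytosolic one with FSH and FBS, against 2.48, 3.14 and 4.25 times untreated. On the log2 scale the ratio was 3.76 ± 0.0549 with FSH and FBS and 1.78 ± 0.433 untreated (SD, n = 2 each), a difference of 1.98. Leaving out Aldh1l2, an alternative chosen after the data were seen, the ratios were 11.4, 12.5 and 13.9 with FSH and FBS. Mthfd2l and Aldh1l1, relatives of Mthfd2 and Aldh1l2, are not among the genes described and entered neither sum. In every untreated library Mthfd2l, at 8.63, 9.89 and 12.3 FPKM, lay above Mthfd2, and in every FSH and FBS library below it. Aldh1l1 was listed at no more than 1.79 FPKM. Ratios with these relatives are not given here.

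Ratios of single genes were apart between the groups as well. Mthfd2 had 6.43, 6.14 and 7.69 times the FPKM of Mthfd1 with FSH and FBS, against 1.40, 1.36 and 1.46 times untreated. Mthfd1l had 0.874, 0.896 and 0.659 times the FPKM of Mthfd1 with FSH and FBS, against 0.275, 0.272 and 0.284 times untreated. The FSH and FBS values were the higher in both ratios, while Mthfd1l stayed below Mthfd1 in every library. Within mitochondria, Mthfd2 had 0.956, 0.865 and 0.880 times the FPKM of Shmt2 with FSH and FBS, against 0.554, 0.443 and 0.330 times untreated. Mthfd2 had 7.36, 6.85 and 11.7 times the FPKM of Mthfd1l with FSH and FBS, against 5.08, 4.99 and 5.14 times untreated.

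**Figure D3:**
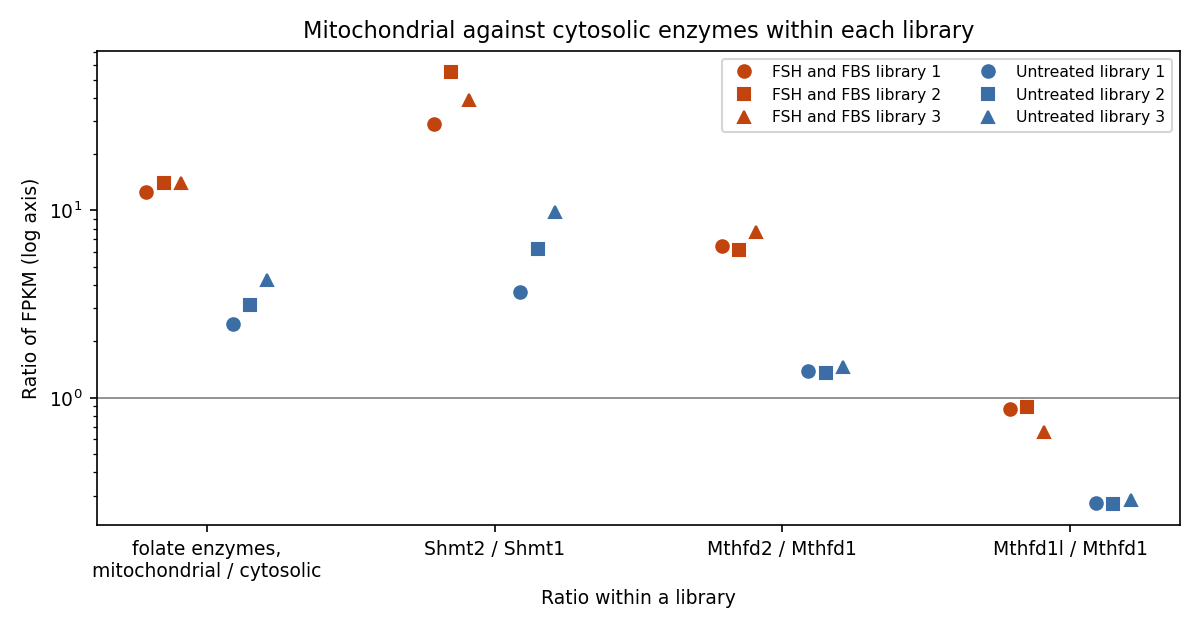
Ratio of FPKM (log axis) between mitochondrial and cytosolic folate enzymes within each library, for the summed genes and for 3 pairs of genes (horizontal axis), with FSH and FBS in orange on the left and untreated in blue on the right. The FSH and FBS symbols lie above the untreated ones in all 4 ratios, and the ratio of Mthfd1l to Mthfd1 stays under 1 in every library.

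Ordered by level, the genes stood in FSH and FBS libraries as Phgdh, Gcsh, Shmt2, Mthfd2, Psat1, Psph, Mthfd1, Mthfd1l and Shmt1. Gcsh and Shmt2, Shmt2 and Mthfd2, Psat1 and Psph, and Mthfd1 and Mthfd1l are neighbours whose ranges of mean ± SD overlap. Phgdh came first by its mean, although in library 1 Gcsh was above it. In untreated libraries the order by mean was Gcsh, Phgdh, Shmt2, Mthfd2, Mthfd1, Psph, Psat1, Shmt1 and Mthfd1l. Phgdh was nonetheless slightly above Gcsh in untreated libraries 1 and 2, and below it only in library 3. In the untreated group the ranges overlapped for Gcsh and Phgdh, Mthfd1 and Psph, Psph and Psat1, and Psat1 and Shmt1. Mthfd1 thus stood below Psat1 and Psph in every FSH and FBS library and above both by its mean in untreated libraries.

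Forms of the transcripts were not used in choosing the genes. Psph was listed with an upstream first exon (129786955 to 129787449) and a downstream one (129779022 to 129779173). The upstream exon carried 0.658%, 0.412% and 100% of first-exon FPKM in FSH and FBS libraries 1 to 3, against 100%, 29.6% and 100% in untreated libraries 1 to 3. Each group held libraries of both kinds, but in the untreated group only library 2, with its different locus identifiers, listed the downstream exon. With n of 2 per group, these shares cannot decide whether the listed exon followed the treatment. The means were 50.3 ± 70.3% with FSH and FBS and 82.4 ± 24.9% untreated (SD, n = 2 each), with an exact two-sided permutation p of 1 in a design that cannot go below 0.3333. Without FSH and FBS library 3 the difference was -81.9 percentage points, against -32.1 points with it, and without untreated library 2 it was -49.7 points. Without untreated library 1 or 3 it was -14.5 points.

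**Figure D4:**
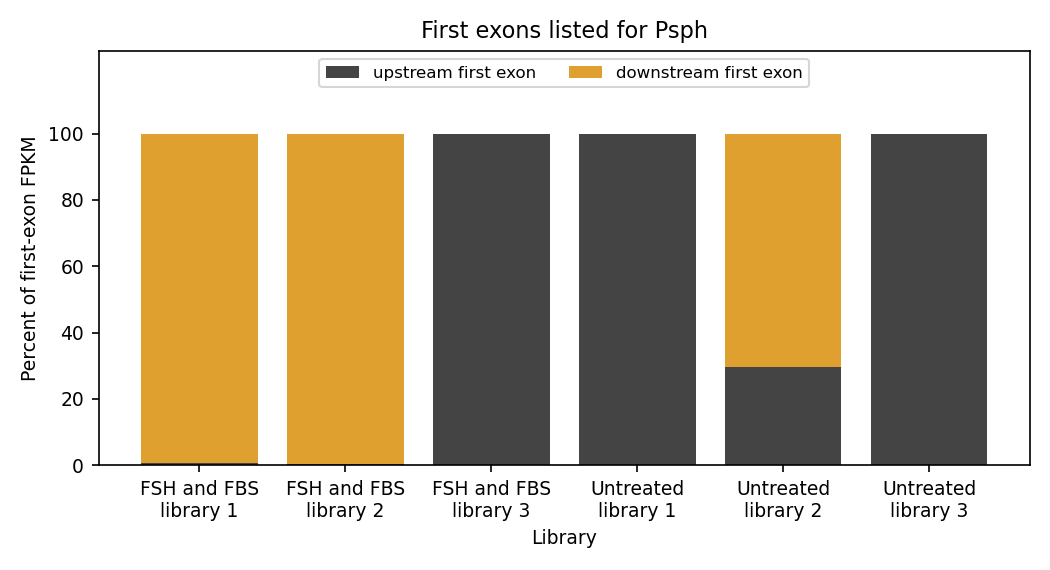
Percent of the first-exon FPKM of Psph (vertical axis) that each of the main first exons carries in each library (horizontal axis), with the upstream exon in dark grey and the downstream exon in yellow. The downstream exon fills FSH and FBS libraries 1 and 2 and 70.4% of untreated library 2, and the other 3 libraries list only the upstream exon.

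Mthfd1l was listed with last exons of 2 lengths. The longer one (4155542 to 4156111) carried 73.2%, 85.8% and 65.9% of last-exon FPKM with FSH and FBS, against 100%, 30.9% and 100% untreated. The FSH and FBS libraries lay between the untreated ones, of which library 2, with its different locus identifiers, was the lowest. The means were 72.7 ± 9.65% with FSH and FBS and 82.7 ± 24.4% untreated (SD, n = 2 each; exact two-sided permutation p of 1, smallest possible 0.3333). The difference of -10.0 points became -27.3 points without untreated library 2 and 7.24 points, with the sign turned, without untreated library 1 or 3. FSH and FBS library 3 also decided its size, since the difference was -3.20 points without it.

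A Shmt2 form that keeps the intron at 127520417 to 127520918 was listed in no FSH and FBS library. In untreated libraries 2 and 3 it carried 27.9% and 14.2% of the listed FPKM, and untreated library 1 did not list it. A shorter Mthfd2 form with its last exon at 83309334 to 83309554 carried 0.0845%, 0.0864% and 0.0801% of last-exon FPKM with FSH and FBS, against 0.996%, 1.01% and 0.0089% untreated. Its own level was very low, at 0.0781, 0.0778 and 0.0813 FPKM with FSH and FBS, against 0.0801, 0.0721 and 0.000604 FPKM untreated. Its share in untreated libraries 1 and 2 was thus higher beside a lower main form, not at a higher level of its own. In both genes the spread within the untreated group spanned the FSH and FBS values or reached them. Gcsh, Mthfd1 and Phgdh were listed with 1 first and 1 last exon each.

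Lists of other genes of serine, glycine and folate metabolism, together with purine synthesis, glycolytic supply and transcription factor genes, held 82 genes beside the enzymes, of which 76 were listed in some library and 66 were tested. In limma 3 of the 66 passed as higher with FSH and FBS and 0 as lower, where 1.68% and 0.687% of all genes did. At an unadjusted p under 0.05, 17 were higher and 1 lower. The share of all genes at that threshold is not given here. Nothing is therefore read from such counts, here or in the lists below. With the replicate block 15 were called higher and 1 lower, where 11.5% and 4.51% of all genes were.

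Of 22 tested genes of the folate cycle and of glycine, 0 passed limma in either direction, with a median log2 fold change of 0.43 and a range from -1.81 to 1.71. At an unadjusted p under 0.05, 6 were higher and 1 lower, and with the replicate block 6 were called higher and 1 lower. Among those were Fpgs, Gcat, Mtrr, Sfxn1 and Tyms as higher and the folate receptor gene Folr1 as lower. Of the most abundant, Dld, the dehydrogenase that the glycine cleavage system shares with other complexes, had 103, 102 and 89.4 FPKM with FSH and FBS, against 56.9, 55.9 and 43.9 FPKM untreated. Its groups did not overlap, and its log2 fold change was 0.93 (SE 0.363, limma adjusted p = 0.262). Sfxn1, the mitochondrial serine carrier known from human cells, had 23.1, 22.9 and 25.7 FPKM with FSH and FBS, against 10.4, 10.2 and 10.4 FPKM untreated (log2 fold change 1.16, limma adjusted p = 0.141). Its relative Sfxn3 had 29.4, 30.02 and 23.1 FPKM with FSH and FBS, against 44.3, 40.9 and 28.8 FPKM untreated (log2 fold change -0.41, limma adjusted p = 0.634). None of these 3 genes passed, and their signs differed. Folr2, a folate receptor gene, had 13.2, 15.9 and 12.4 FPKM with FSH and FBS, against 27.97 and 17.4 FPKM in untreated libraries 1 and 3, and was not listed in untreated library 2, so it was not tested. Mthfd2l, the paralog of Mthfd2 and named here after its values were seen, had 7.80, 7.79 and 13.3 FPKM with FSH and FBS, against 8.63, 9.89 and 12.3 FPKM untreated, and its groups overlapped.

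Of 18 tested genes of serine uptake and use, 2 passed as higher and 0 as lower, with a median log2 fold change of 0.45. At an unadjusted p under 0.05, 5 were higher and 0 lower, and with the replicate block 5 were called higher and 0 lower, with Sars, Slc1a4 and Sptlc1 added. Slc1a5, a carrier of small neutral amino acids, had 23.7, 26.8 and 19.4 FPKM with FSH and FBS, against 1.06, 0.966 and 1.37 FPKM untreated. The groups lay far apart, and the log2 fold change was 3.41 (SE 0.369, limma adjusted p = 0.00624). Slc6a9, the glycine transporter GLYT1, had 38.7, 40.6 and 27.6 FPKM with FSH and FBS, against 4.57, 3.70 and 2.28 FPKM untreated. Library 3 was the lowest in each group, and the log2 fold change was 3.06 (SE 0.398, limma adjusted p = 0.00998). Scaled to equal sums, Slc6a9 lost its call (limma adjusted p = 0.0612). Both log2 fold changes lay between those of Phgdh and Psat1.

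Of 15 tested genes of purine and thymidylate synthesis, a use of the folate-bound carbon units, 0 passed limma in either direction, with a median log2 fold change of 0.48 and a range from -0.09 to 1.15. At an unadjusted p under 0.05, 2 were higher and 0 lower, and with the replicate block Impdh1 and Tyms were called higher. Paics, which encodes an enzyme of the middle of the purine pathway, had 56.6, 63.6 and 55.9 FPKM with FSH and FBS, against 48.2, 93.7 and 23.9 FPKM untreated. Atic, of the last steps to inosine monophosphate, had 36.1, 37.9 and 27.8 FPKM with FSH and FBS, against 29.97, 27.8 and 21.0 FPKM untreated. The untreated libraries spanned or overlapped the FSH and FBS ones for both genes. For Paics only untreated library 2, with its different locus identifiers, reached the FSH and FBS values. For Impdh2, of guanine nucleotide synthesis, values were 49.4, 49.6 and 48.9 FPKM with FSH and FBS, against 42.7, 14.99 and 31.4 FPKM untreated (log2 fold change 0.69, limma adjusted p = 0.353). For Adss, of adenine nucleotide synthesis, they were 32.4, 33.0 and 23.4 FPKM with FSH and FBS, against 33.3, 32.8 and 22.8 FPKM untreated, nearly the same library by library.

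Of 4 tested genes of glycolysis around 3-phosphoglycerate, 0 passed limma in either direction, 3 were higher at an unadjusted p under 0.05 and 0 lower, and with the replicate block Pgam1 was called higher. Their log2 fold changes ran from 0.94 to 1.15. Pgk1, whose enzyme makes 3-phosphoglycerate, had 108, 115 and 152 FPKM with FSH and FBS, against 75.8, 75.0 and 60.5 FPKM untreated. Pgam1, whose enzyme draws it away into glycolysis, had 83.0, 87.3 and 91.6 FPKM with FSH and FBS, against 41.9, 41.6 and 37.1 FPKM untreated. The groups were apart for both, with limma adjusted p-values of 0.280 and 0.158. Pkm, for pyruvate kinase, had 224, 221 and 273 FPKM with FSH and FBS, against 121, 121 and 113 FPKM untreated. Eno1, for enolase, had 158, 175 and 282 FPKM with FSH and FBS, against 82.3, 40.6 and 188 FPKM untreated, and its groups overlapped. Processed pseudogenes are known for several of these glycolytic genes, and how the authors' counting split such reads is not given in the sources used here.

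Of 9 tested genes for transcription factors and amino acid sensing known to act on serine synthesis genes, 1 passed as higher and 0 as lower, with a median log2 fold change of 0.72. At an unadjusted p under 0.05, 2 were higher and 0 lower. The called gene, Atf5, a factor of the amino acid and mitochondrial stress responses, had 181, 178 and 221 FPKM with FSH and FBS, against 23.6, 24.2 and 29.0 FPKM untreated. The groups were apart, library 3 was the highest in each, and the log2 fold change was 2.87 (SE 0.364, limma adjusted p = 0.00921). Without untreated library 3, which leaves 1 untreated sample, its log2 fold change was 3.01. Atf4, which activates serine synthesis genes when amino acids are short and is named here after its values were seen, had 374, 371 and 441 FPKM with FSH and FBS, against 130.1, 139 and 135 FPKM untreated. Its groups were apart as well, with a log2 fold change of 1.58 (SE 0.413, limma adjusted p = 0.107), and it was called higher with the replicate block.

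**Figure D5:**
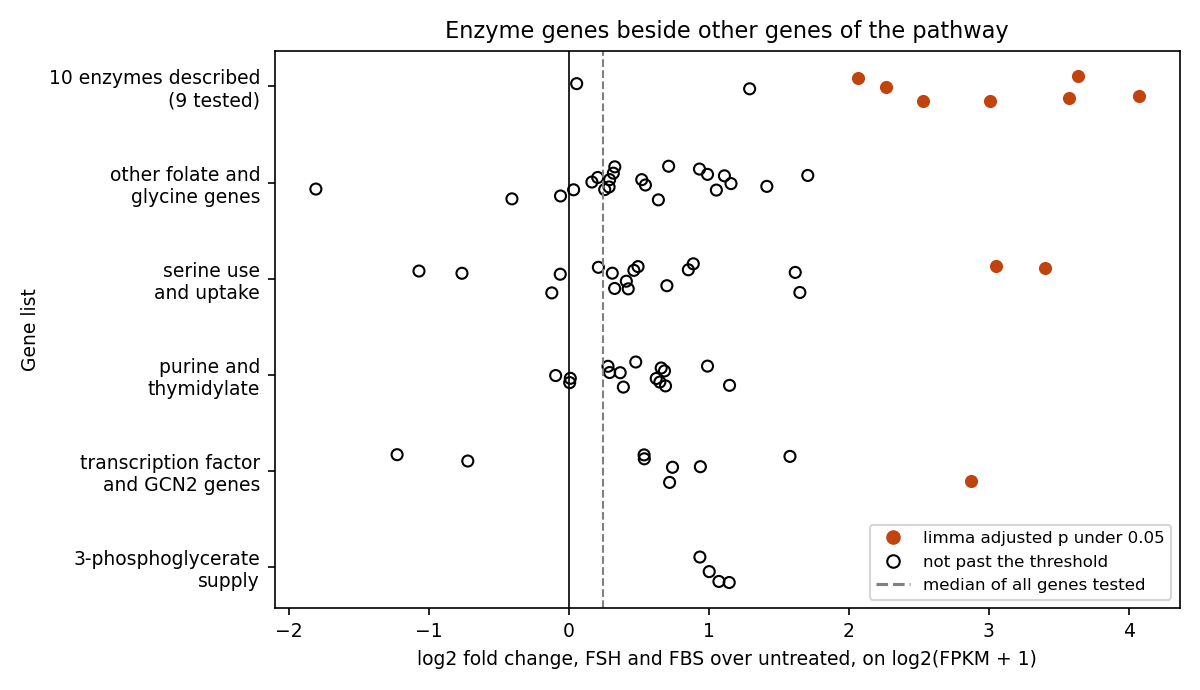
Log2 fold change of FSH and FBS over untreated (horizontal axis) for each tested gene of the enzymes described and of 5 other gene lists (vertical axis); filled circles passed limma at an adjusted p under 0.05, open circles did not, and the dashed line is the median of all genes tested. The open circles of the other lists lie between -1.81 and 1.71, and the 3 filled circles outside the enzymes are Slc1a5, Slc6a9 and Atf5.

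The genes most alike in profile were taken as those with the smallest Euclidean distance of log2(FPKM + 1) values, centred on each gene's mean, over the 6 libraries. Over so few libraries this likeness mostly orders genes by the size of the difference between the groups, which the enzymes were chosen for. Closest to Phgdh were Asns, the asparagine synthetase gene, at 0.581, Arrdc4 at 0.588, Slc3a2 at 0.693 and Wnt4 at 0.728. Asns had 146, 201 and 206 FPKM with FSH and FBS, against 20.2, 20.9 and 22.6 FPKM untreated, with the lowest FSH and FBS value in library 1, as for Phgdh. Among the 4 closest to Psat1 were Sdc1, the syndecan 1 gene, at 0.459, Chac1 at 0.877 and Tnfaip6 at 0.895. Among the 4 closest to Mthfd2 were Vnn1 at 0.356, Pik3c2g at 0.360 and again Sdc1 at 0.368. Sdc1 had 962, 916 and 1081 FPKM with FSH and FBS, against 74.7, 72.7 and 61.8 FPKM untreated, a higher level than that of any enzyme described in the same library. Closest to Shmt2 were Tmem268 at 0.156, Msmo1, a sterol synthesis gene, at 0.258, Rgcc at 0.411 and Atf5 at 0.412. Between the enzymes the distance was 0.732 for Psat1 and Mthfd2, 0.594 for Shmt2 and Gcsh, 0.880 for Phgdh and Shmt2 and 1.63 for Phgdh and Psat1. Phgdh and Psat1, neighbours in the pathway, thus lay farther apart than either did from the genes named as closest to it.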

How the data were processed

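The members and all gene lists were chosen with earlier results of these data known. RNA was sequenced from 6 libraries; the 6 small RNA libraries were not analysed here. The authors deposited, per the file headers, tables of transcript events (first exons, last exons, skipped exons, kept introns and others) with an FPKM value each. Per the submitters' processing notes, HISAT2 2.0.1 aligned the reads, and how transcripts were assembled and filtered, and on which genome build, is not given in the sources used here. Since 0 is never listed, a gene without a listed first or last exon counted as missing in the fits, apart from the alternative with unlisted genes as 0. In sums over genes and in shares of exons or introns, an unlisted gene or form counted as 0. Depth is unknown and no counting interval is given.

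From the deposited FPKM, a gene's value was the sum over its first exons or over its last exons, whichever was larger. Symbols from the supplied table matched 13281 of 13318 genes. Libraries 1 and 2 of a group were averaged, and 9022 genes with a value in every library and a mean of 1 FPKM or more were fitted on log2(FPKM + 1) in limma (3.58.1, under R 4.3.3) with its trend option, two-sided, with Benjamini-Hochberg adjustment over all of them and a threshold of 0.05. The fit was tested on simulated data. The labels number the libraries within a group; separate cultures or animals are not stated, so the p-values cover only the spread among these samples, and that spread may be technical. Deviations from the group means correlated at r = 0.32, 0.31 and 0.51 over genes between same-numbered libraries 1, 2 and 3 of the 2 groups, so the numbers were taken to pair the samples, and a fit with the replicate block was run. Libraries 1 and 2 correlated as well across numbers (0.31 and 0.33).

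Text names all 10 members, each called gene of a list or otherwise up to 4 of highest mean FPKM, and the 4 closest profiles to Phgdh, Psat1, Shmt2 and Mthfd2; exceptions are marked, and some genes so picked are not reported. Alternatives were separate libraries, the block, pseudocount, filters, unlisted genes as 0, 3 scalings, first or last exons only, leaving out each library and, chosen after the data were seen, leaving out Aldh1l2. Shares of exons were compared with an exact permutation test.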

Additional observations from a re-analysis of the deposited data

How the results depend on the processing

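The number of enzyme genes called was 7, and 8 with the 6 libraries as separate replicates or with the replicate block; the block added Mthfd1 and changed no other enzyme call. Median-of-ratios scaling gave 4, losing Shmt2, Mthfd1l and Gcsh. Equal sums and first exons only gave 5 each, losing Mthfd1l and Gcsh. Quantile normalization gave 6, losing Gcsh. A minimum mean of 5 FPKM gave 6 of 8 tested, losing Mthfd1l, and last exons only gave 6 of 7 tested, with Psph not tested. The other pseudocount, no minimum mean and unlisted genes as 0 gave 7 each, as did leaving out library 1 or 2 of either group. Leaving out library 3 of a group left 1 sample in it, so no counts are given for that. The other pathway genes called were 3, also without library 1 or 2 of either group, against 20 with separate libraries, 16 with the replicate block and 24 with both. Psat1, Psph and Mthfd2 kept their direction under all alternatives in which they were tested, with log2 fold changes of 3.70 to 4.399, 3.31 to 3.86 and 3.20 to 3.73. They kept their call in all of these that left at least 2 samples per group. The sign of Shmt1 turned, to -0.0487 with separate libraries, with or without the block, -0.17 with equal sums, -0.14 with median of ratios, -0.0663 with quantile normalization, and -0.17 to 0.19 without 1 library. The log2 difference of the mitochondrial to cytosolic ratio ran from 1.68 with last exons only to 2.29 without untreated library 3. Of all 9022 genes tested, 152 were called higher and 62 lower. These calls were 1040 and 407 with the replicate block, 973 and 350 with separate libraries and 1516 and 584 with both. They were 59 and 45 with equal sums, 49 and 41 with median of ratios and 104 and 80 with quantile normalization. First exons only gave 42 and 21 of 7942 genes. With n of 2 per group, unknown depth and no listed zeros, a gene that missed the threshold is not shown to be unchanged. The cause of these shifts was not tested.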
